A study of Mus musculus with 6 samples.

Results

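The Kcn genes, which encode potassium channels and their subunits, were followed by bulk RNA-seq in dorsal root ganglia of mice, which hold the cell bodies of the neurons that sense touch, pain, itch and limb position. Members were all protein-coding entries of the count table whose symbol begins with Kcn and that had at least 1 count in any library. They number 92 of 54532 entries. A further 2 entries, Kcnk15 and Kcne1, had no count in any library. The study compared 3 libraries of ganglia from Ash1l+/- mice, in which 1 copy of the gene for the histone H3 lysine 36 methyltransferase Ash1l is altered, with 3 libraries from wild-type (WT) mice of the same litters. No other treatment is named for either group. The sources used here do not give age, sex, strain background, the structure of the allele, the number of animals behind each library or the spinal levels taken. Nothing states that the 3 libraries of a genotype came from separate animals, so a p-value covers sample-to-sample spread only, and part of that may be technical.

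Potassium channels set the resting potential of a neuron, repolarise it after a spike and limit how often it fires. Voltage-gated channels are built from pore-forming alpha subunits, some of which are silent alone and modify the Kv2 subunits they join. Inward rectifiers and two-pore channels carry resting current, and calcium- or sodium-activated channels open as these ions enter during firing. In sensory ganglia, potassium currents are known as brakes on excitability, and the satellite glia that wrap each neuron buffer extracellular potassium through an inward rectifier.

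Total gene counts were 17209294 to 20545722 in Ash1l+/- libraries and 17648407 to 19033437 in WT libraries. Kcn genes took 0.607% to 0.649% of all counts in Ash1l+/- libraries and 0.551% to 0.647% in WT libraries. WT replicate 2 stood apart. Its correlation of log2 CPM (counts scaled to library size by trimmed mean of M-values, TMM) with the other libraries was 0.846 to 0.877, against at least 0.981 among the other 5. Counts of calls are given over all 6 libraries and over the 5 without it. That it stands apart was known from an earlier account of these data. The set of 5 was thus chosen with results known. The Ash1l transcript was at 66.5, 66.5 and 68.9 CPM in Ash1l+/- replicates 1, 2 and 3, against 60.9, 30.9 and 54.4 CPM in WT replicates 1, 2 and 3. Libraries labelled Ash1l+/- thus had no less of it, and since the allele is not described the counts do not check the labels, which alone give the genotype below. The tissue label was borne out by sensory neuron markers: all 9 listed, among them Tubb3 and Prph, were detected in every library, with a summed level of 9628 to 9944 CPM in Ash1l+/- and 10382 to 23023 CPM in WT. In whole ganglia, fewer cells of a type and less RNA per cell cannot be told apart.

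The Kcn repertoire of the ganglia was led by cytoplasmic partners of the channels rather than by pore subunits. Per gene length (FPKM, fragments scaled by gene length and library size), Kcnab2, the beta subunit of Kv1 channels, was first at 231, 205 and 212 FPKM in Ash1l+/- replicates, against 262, 346 and 239 FPKM in WT replicates. Kcnip3, a calcium-binding partner of Kv4 channels, came second at 75.0, 64.1 and 69.7 FPKM in Ash1l+/-, against 87.5, 80.7 and 78.5 FPKM in WT. No other member reached these levels in the 5 libraries other than WT replicate 2, and accessory subunits together held 40.4% of the summed Kcn FPKM there. The pore subunits that followed were Kcnd1 of the Kv4 family, with a mean of 54.0 FPKM over those 5 libraries, and Kcna2 and Kcna1 of the Kv1 family, with 46.6 and 42.0 FPKM. Kcnip4, another Kv4 partner, stood among them at 51.3 FPKM, and its values of 48.7 to 55.2 FPKM in Ash1l+/- and 45.1 to 52.7 FPKM in WT overlap those of Kcnd1 in Ash1l+/-. The two-pore channel Kcnk1 had a mean of 40.3 FPKM, the Kv4 partner Kcnip2 37.2 FPKM, the silent subunit Kcns1 36.0 FPKM and the Kv3 subunit Kcnc4 32.5 FPKM. These 10 members held 60.1% of the summed Kcn FPKM. A mean of at least 10 FPKM was reached by 27 members, of at least 1 FPKM by 59 and of at least 0.1 FPKM by 83. The 9 members below that were Kcnmb3, Kcnk7, Kcna7, Kcnh4, Kcne2, Kcnj15, Kcnv2, Kcnj5 and Kcnj1, and all of them had too few counts to test.

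**Figure D1:**
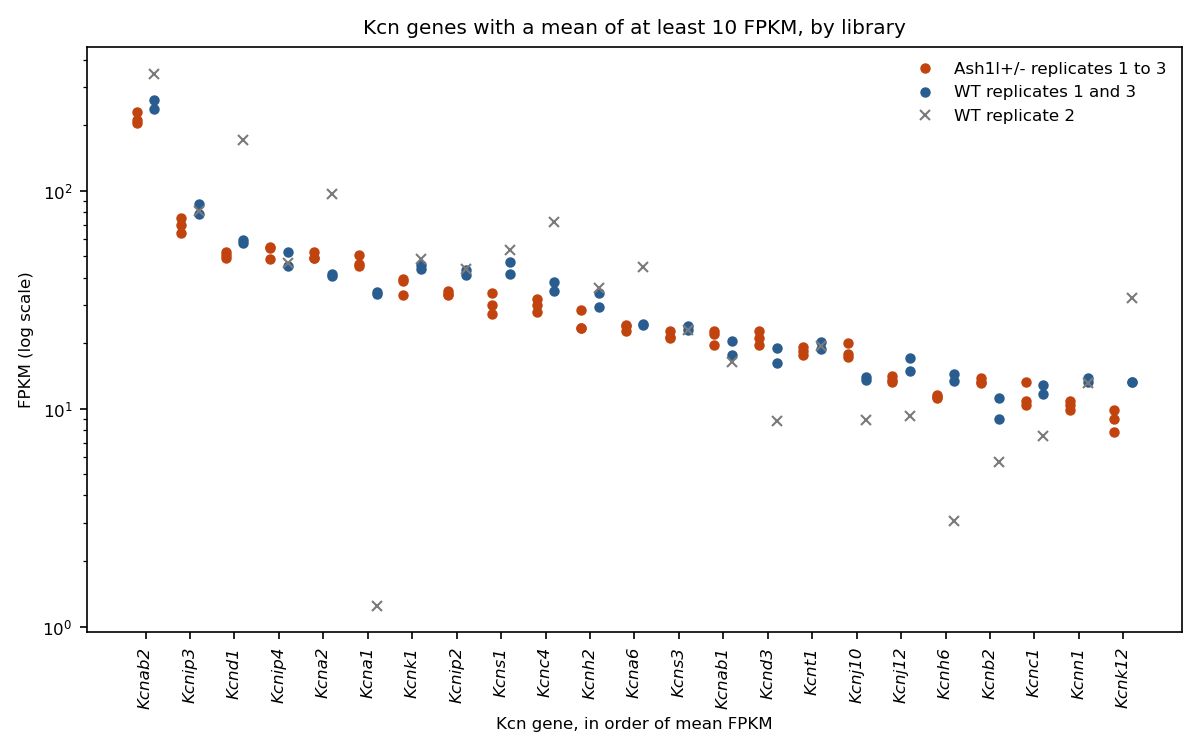
FPKM (log scale) of 23 Kcn genes with a mean of at least 10 FPKM over the 5 libraries other than WT replicate 2, 1 point per library, in order of that mean. Kcnab2 stands alone at the top, and WT replicate 2 (crosses) departs from WT replicates 1 and 3 most for Kcna1, at 1.25 FPKM against 33.8 and 34.4 FPKM.

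Ash1l+/- ganglia were compared with WT ganglia to find genes that respond to an altered Ash1l copy. Over all 6 libraries no Kcn gene passed the test. Of the 77 members with enough counts, 0 had an adjusted p under 0.05 in edgeR's quasi-likelihood test with Benjamini-Hochberg adjustment, and neither did any of the 16032 genes tested (0%); the smallest adjusted p of a member was 0.385. DESeq2, which called 0.0105% of all genes, and limma-voom, which called 0%, called 0 members too, while limma-voom with library quality weights called 36, or 46.8% of the members tested, against 26.1% of all genes. At an unadjusted p under 0.05 in edgeR there were 16 members, 6 higher and 10 lower in Ash1l+/-, against 10.6% of all genes tested. The median log2 fold change, Ash1l+/- over WT, was -0.02 over the members tested and 0.00 over all genes.

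Over the 5 libraries without WT replicate 2, 31 of the 78 members tested passed the same test, 14 higher and 17 lower in Ash1l+/-. That is 39.7% of the members tested, against 19.8% of the 16395 genes tested; 9.39% of all genes rose and 10.4% fell. DESeq2 called 25 members in these libraries, against 22.2% of all genes. The changes were small. The absolute log2 fold change of the 31 had a median of 0.38, from 0.21 for Kcnab2 to 0.92 for Kcnk9. The median log2 fold change was -0.08 over the members tested and 0.00 over all genes.

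Base composition and length moved with these calls. The share of G and C in the longest transcript had a median of 45.5% (36.6% to 50.1%) in the 14 members that rose and 58.0% (46.6% to 69.4%) in the 17 that fell, against 52.3% over the members tested. Median gene length was 8241 bases in those that rose and 3546 bases in those that fell, against 4572 bases over the members tested. The same held over the whole table, where genes that rose had a median of 43.6% and genes that fell 56.6%. Across the 78 members, which share the same 5 libraries, the Spearman correlation of the log2 fold change with GC content was -0.66, and across all genes tested with a GC value it was -0.55. A second fit therefore removed each library's trend of counts on GC content and gene length. This fit left a Spearman correlation of log2 fold change with GC content of -0.21 across the 78 members. It called 6 members, or 7.69% of those tested, against 7.04% of all genes tested: Kcna1, Kcnj10, Kcnh7 and Kcnh5 were higher and Kcng2 and Kcnmb1 lower in Ash1l+/-. The background was 2.63% of genes higher and 4.41% lower. Over all 6 libraries this fit called 0 of 77 members and 0% of all genes, with 6 members at an unadjusted edgeR p under 0.05, against 5.64% of all genes. With the trends removed, all 14 members that had risen kept a positive log2 fold change, with a median of 0.22 in place of 0.41, and 12 of the 17 that had fallen kept a negative one, with a median of -0.13 in place of -0.32.

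**Figure D2:**
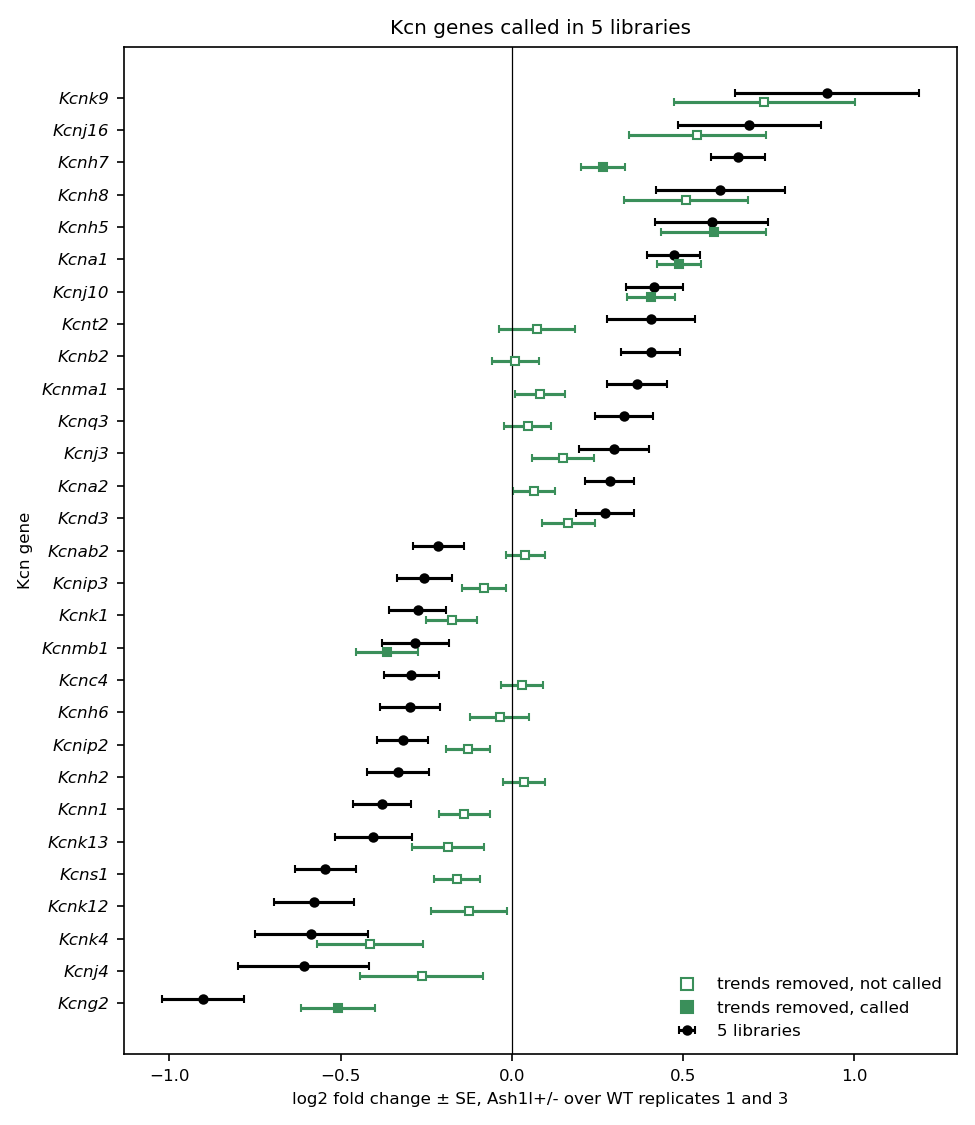
Log2 fold change ± SE, Ash1l+/- over WT replicates 1 and 3, of 29 Kcn genes called in the 5 libraries (black) and the same with GC and length trends removed (green, filled where called). Kcna1, Kcnj10 and Kcnh5 keep their size in the second fit, Kcnh7 and Kcng2 keep part of it, and Kcnk9, Kcnj16, Kcnh8 and Kcnk4 keep most of it without passing.

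**Figure D3:**
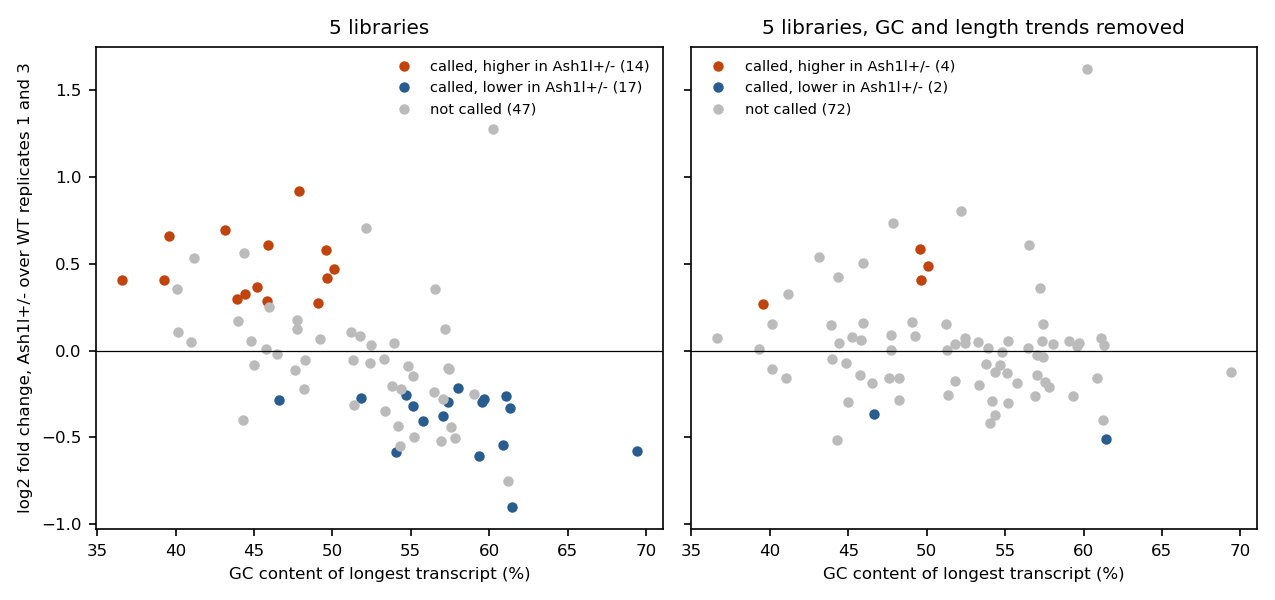
Log2 fold change of the 78 Kcn genes tested in the 5 libraries against the GC content of their longest transcript in percent, before (left) and after (right) removal of GC and length trends. Called members that rose lie at or below 50.1% GC, and of those that fell Kcnmb1 alone lies below that value.

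Among the Kv1 subunits, which form the low-threshold channels beside the nodes of myelinated axons, Kcna1 and Kcna2 rose in the 5 libraries and no member fell. Of the 8 members 6 were tested there, and their median log2 fold change was 0.17, or 0.06 with the trends removed. Kcna1 (chromosome 6, 126640397 to 126646384, minus strand of GRCm38, ENSMUSG00000047976) was at 236, 216 and 211 CPM in Ash1l+/- replicates 1, 2 and 3, against 158, 5.90 and 161 CPM in WT replicates 1, 2 and 3. All 3 Ash1l+/- values lie above all 3 WT values, and WT replicate 2 is far below the rest. The log2 fold change was 0.47 (SE 0.08, edgeR adjusted p = 0.000495) over the 5 libraries, 0.49 (SE 0.06, adjusted p = 0.000295) with the trends removed, and 1.03 (SE 0.99, adjusted p = 0.547) over all 6. Over the 6 libraries an exact permutation test (two-sided, on log2 CPM) gave p = 0.1, the lowest possible with 3 libraries in each group.

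Kcna2 was at 607, 571 and 574 CPM in Ash1l+/-, against 473, 1139 and 486 CPM in WT. Here WT replicate 2 is the highest of the 6, so the groups overlap. Over the 5 libraries its log2 fold change was 0.29 (SE 0.07, edgeR adjusted p = 0.00864), against 0.06 with the trends removed, and -0.26 over all 6, where neither passed. The ratio of Kcna1 to Kcna2 in CPM was 0.389, 0.378 and 0.367 in Ash1l+/- and 0.334, 0.00518 and 0.331 in WT. Kcna6, another Kv1 subunit, was at 140, 132 and 139 CPM in Ash1l+/-, against 141, 263 and 142 CPM in WT; every Ash1l+/- value is below every WT value, but the gap is about 1 CPM. Kcna4, the A-type Kv1 subunit of small sensory neurons, was at 23.1 to 26.6 CPM in Ash1l+/- and 14.9 to 25.2 CPM in WT. Neither Kcna6 nor Kcna4 passed the test.

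The Kcnh genes, which encode the EAG, ERG and ELK channels, changed in both directions. ERG channels carry slow outward currents that damp repetitive firing. Of the 8 Kcnh genes 7 were tested in the 5 libraries, where Kcnh7, Kcnh5 and Kcnh8 rose and Kcnh2 and Kcnh6 fell. Kcnh7 (chromosome 2, 62693414 to 63184287, minus strand) had 169, 174 and 163 CPM in Ash1l+/- replicates, against 101, 16.1 and 113 CPM in WT replicates. The groups do not overlap, with or without WT replicate 2. On the log2 scale the fold change was 0.66 (SE 0.08, edgeR adjusted p = 3.37e-05) over the 5 libraries, the smallest p of any member, 0.27 (SE 0.06, adjusted p = 0.0179) with the trends removed, and 1.14 (SE 0.65, adjusted p = 0.396) over all 6. The span of Kcnh7 overlaps those of Gca, Gm13569 and Gm22020. The library kit named in the labels does not mark strand, and whether exons of these genes overlap was not tested.

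Kcnh5, an EAG channel (chromosome 12, 74897220 to 75177332, minus strand), was expressed at a low level, with 8.24, 7.89 and 8.40 CPM in Ash1l+/-, against 5.48, 0.747 and 5.44 CPM in WT. All Ash1l+/- values of Kcnh5 exceed all WT values. The change on the log2 scale was 0.58 (SE 0.16, edgeR adjusted p = 0.0177) over the 5 libraries, 0.59 (SE 0.15, adjusted p = 0.0265) with the trends removed, and 1.06 (SE 0.64, adjusted p = 0.405) over all 6. Kcnh8, an ELK channel, had 7.46, 10.4 and 7.24 CPM in Ash1l+/-, against 5.78, 3.36 and 5.18 CPM in WT, and its call ended when the trends were removed (log2 fold change 0.61 before and 0.51 after, edgeR adjusted p = 0.102 after, and 0.80 over all 6). Kcnh2, the ERG channel also known from the heart and the highest of the family per length, was at 134, 112 and 111 CPM in Ash1l+/-, against 162, 172 and 139 CPM in WT. It fell by 0.33 on the log2 scale in the 5 libraries (SE 0.09, edgeR adjusted p = 0.0152), by 0.22 without WT replicate 1 as well, where it did not pass, and was at 0.03 with the trends removed and -0.40 over all 6. Kcnh6 fell by 0.30 in the 5 libraries, but with WT replicate 2, at 10.8 CPM against 46.6 and 50.3 CPM in the other WT libraries, its log2 fold change turned to 0.13. Kcnh3, another ELK channel, was at 2.15, 1.61 and 1.73 CPM in Ash1l+/-, against 3.70, 5.68 and 2.49 CPM in WT, and passed in neither set. Its unadjusted p in the edgeR model over all genes was 0.0222 with all 6 libraries.

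The Kv2 subunits carry much of the delayed rectifier current of sensory neurons. Kcnb2 was at 195, 196 and 205 CPM in Ash1l+/-, against 134, 85.5 and 166 CPM in WT, and rose in the 5 libraries with a log2 fold change of 0.41 (SE 0.09, edgeR adjusted p = 0.00316). The value was 0.25 without WT replicate 1 as well, where the call ended, and 0.01 with the trends removed. Over all 6 libraries it was 0.63 (unadjusted p = 0.0493) and, with the trends removed, -0.11. Kcnb2 is among the longest and most AT-rich members, at 15165 bases and 39.3% GC.

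The silent subunits, which have no current of their own and change the behaviour of Kv2 channels, held the 2 members with the lowest unadjusted p in the 6 libraries, Kcng2 and Kcns1. Of the 10 members 9 were tested in the 5 libraries, where these 2 fell and no member rose, with a median log2 fold change of -0.22, or -0.16 with the trends removed. Kcng2 (chromosome 18, 80294546 to 80364254, minus strand) had 12.8, 11.8 and 11.1 CPM in Ash1l+/- replicates, against 22.2, 41.7 and 22.4 CPM in WT replicates. The lowest WT library was well above the highest Ash1l+/- library, and WT replicate 2 was highest of all. The difference on the log2 scale was -0.90 (SE 0.12, edgeR adjusted p = 8.51e-05) over the 5 libraries, -0.51 (SE 0.11, adjusted p = 0.00892) with the trends removed, and -1.27 (SE 0.29, unadjusted p = 0.00439, adjusted p = 0.385) over all 6. Its position overlaps D330025C20Rik, Gm26676 and Gm37015.

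Kcns1, a silent subunit of myelinated sensory neurons (chromosome 2, 164163619 to 164171113, minus strand), was at 90.0, 72.6 and 79.0 CPM in Ash1l+/- replicates, against 125, 144 and 111 CPM in WT replicates. The groups do not overlap. This gave a log2 fold change of -0.54 (SE 0.09, edgeR adjusted p = 0.000524) over the 5 libraries and -0.65 (SE 0.17, unadjusted p = 0.00806, adjusted p = 0.385) over all 6. With the trends removed it was -0.16 (SE 0.07, adjusted p = 0.167) over the 5 libraries and -0.03 over all 6, so the call ended. The Kcns1 transcript has 60.9% GC. Kcns1 held 41.5% to 46.7% of the FPKM of the silent subunits in Ash1l+/- and 48.6% to 53.1% in WT. Kcns3, the next silent subunit per length, was at 66.0, 65.4 and 70.1 CPM in Ash1l+/- and 71.2, 71.8 and 74.1 CPM in WT and did not pass.

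Kv4 subunits carry the fast A-type current. Kcnd3 was at 184, 199 and 214 CPM in Ash1l+/-, against 151, 83.1 and 178 CPM in WT, and rose in the 5 libraries by a log2 fold change of 0.27 (SE 0.08, edgeR adjusted p = 0.029); the value was 0.16 without WT replicate 1 as well and 0.16 with the trends removed, and neither passed. Over all 6 libraries it was 0.53. Its antisense gene Kcnd3os lies over it. Kcnd1, the most abundant Kv4 subunit, was at 270, 255 and 264 CPM in Ash1l+/-, against 308, 900 and 298 CPM in WT. The groups do not overlap, and its edgeR adjusted p of 0.0514 in the 5 libraries fell just short. Kcnd2, at 4.03, 3.38 and 3.90 CPM in Ash1l+/- against 2.37, 1.87 and 2.75 CPM in WT, passed in neither set. With all 6 libraries its unadjusted p in the edgeR model over all genes was 0.0307.

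The Kv3 subunits let neurons fire at high rates. Kcnc4 fell in the 5 libraries, and Kcnc1 and Kcnc2 did not pass. Kcnc4 was at 114, 107 and 99.5 CPM in Ash1l+/-, against 137, 262 and 125 CPM in WT, a log2 fold change of -0.29 (SE 0.08, edgeR adjusted p = 0.0145). It turned with the trends removed, to 0.03, and was -0.71 over all 6 libraries. Among the KCNQ genes, the source of the M current that holds neurons below threshold, Kcnq3 rose (58.4, 61.3 and 63.6 CPM in Ash1l+/-, against 46.6, 15.8 and 50.8 CPM in WT). Its log2 fold change of 0.33 became 0.05 with the trends removed and was 0.69 over all 6 libraries. Kcnq5 did not pass.

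Kcnj10 (chromosome 1, 172341210 to 172374085, plus strand) encodes Kir4.1, the inward rectifier of satellite glia. Its level was 105, 91.7 and 94.2 CPM in Ash1l+/- replicates, against 73.9, 47.4 and 71.7 CPM in WT replicates. Every Ash1l+/- library lies above every WT library. The log2 fold change was 0.42 (SE 0.08, edgeR adjusted p = 0.00198) over the 5 libraries, 0.41 (SE 0.07, adjusted p = 0.00193) with the trends removed, and 0.59 (SE 0.21, unadjusted p = 0.0295, adjusted p = 0.385) over all 6. Of the 8 satellite glia markers listed, Fabp7, Gja1 and Slc1a3 were among those that also rose in the 5 libraries, by log2 fold changes of 0.36, 0.43 and 0.36, while Glul, Apoe and Cadm2 did not pass. With the trends removed, Kcnj10 alone of the 8 passed. The summed level of the list was 3574 to 4324 CPM in Ash1l+/- and 3976 to 12166 CPM in WT, where the top value is WT replicate 2, and no marker was at 0 in any library. Its part in the Kcnj10 result was not tested.

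Kcnj16, which joins Kcnj10 in Kir4.1/Kir5.1 channels, was low, at 4.99, 4.99 and 4.84 CPM in Ash1l+/-, against 3.21, 3.06 and 2.90 CPM in WT. The values are tight within each group, and WT replicate 2 sits with the other WT libraries. The log2 fold change was 0.69 (SE 0.21, edgeR adjusted p = 0.0247) over the 5 libraries and 0.69 (SE 0.19, unadjusted p = 0.0106, adjusted p = 0.385) over all 6. The call ended with the trends removed (0.54, edgeR adjusted p = 0.114). Kcnj3, a G protein-gated rectifier, rose with 27.5, 28.0 and 27.9 CPM in Ash1l+/-, against 21.7, 24.0 and 23.5 CPM in WT (log2 fold change 0.30, edgeR adjusted p = 0.0457 over 5 libraries, and 0.27 over all 6). Over the 5 libraries its log2 fold change was 0.15 with the trends removed, where it did not pass. DESeq2 did not call it there either (adjusted p = 0.0702). Kcnj4 fell, with 5.77, 7.19 and 5.84 CPM in Ash1l+/-, against 11.8, 20.2 and 7.31 CPM in WT, but its log2 fold change of -0.61 became -0.23 without WT replicate 1 as well, where it did not pass, and was -1.06 over all 6. Of the 15 inward rectifier genes 11 were tested.

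The two-pore channels set background potassium conductance. In the 5 libraries Kcnk1, Kcnk4, Kcnk12 and Kcnk13 fell and Kcnk9 rose among the 11 tested of 13, with a median log2 fold change of -0.25, or -0.13 with the trends removed. Kcnk4 encodes TRAAK, a mechanosensitive channel, and was at 8.61, 9.23 and 6.18 CPM in Ash1l+/-, against 12.5, 10.6 and 11.6 CPM in WT (log2 fold change -0.59, SE 0.16, edgeR adjusted p = 0.0170 over 5 libraries). Kcnk12, a silent member of the family and at 69.4% the most GC-rich member tested, was at 16.9, 18.6 and 14.7 CPM in Ash1l+/-, against 25.0, 61.9 and 25.1 CPM in WT. Its log2 fold change of -0.58 (edgeR adjusted p = 0.00229) became -0.13 with the trends removed. Over all 6 libraries Kcnk4, Kcnk12, Kcnk1 and Kcnk13 had -0.53, -1.15, -0.32 and -0.35, so that of these 4 the value of Kcnk12 moved most with WT replicate 2. Kcnk1 was at 84.3, 72.9 and 86.1 CPM in Ash1l+/-, against 96.0, 108 and 101 CPM in WT, and Kcnk13 at 17.8, 16.6 and 16.4 CPM in Ash1l+/-, against 21.4, 19.6 and 23.5 CPM in WT. In all 4 that fell, the groups do not overlap, and none passed with the trends removed. Kcnk9, or TASK-3, had the widest change of the called members at a level of few reads, with 4.81, 5.37 and 2.84 CPM in Ash1l+/-, against 2.37, 0.672 and 2.23 CPM in WT (log2 fold change 0.92, SE 0.27, edgeR adjusted p = 0.0214 over 5 libraries, 0.74 with an adjusted p of 0.104 with the trends removed, and 1.28 over all 6). The channels best known from nociceptors, Kcnk2 (TREK-1), Kcnk10 (TREK-2) and Kcnk18 (TRESK), had means of 3.00, 1.45 and 3.53 FPKM over the 5 libraries and did not pass.

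Of the 8 calcium- and sodium-activated channel genes, Kcnma1 and Kcnt2 rose and Kcnn1 fell in the 5 libraries. Kcnma1, the large-conductance BK channel, was at 71.6, 70.5 and 71.4 CPM in Ash1l+/-, against 49.9, 28.6 and 60.7 CPM in WT. Its log2 fold change of 0.37 (SE 0.09, edgeR adjusted p = 0.00694) became 0.23 without WT replicate 1 as well, where it did not pass. It was 0.62 over all 6 libraries and 0.08 with the trends removed, on the longest gene model among the members tested (16976 bases). Kcnt2, a sodium-activated channel, was at 14.8, 17.1 and 16.8 CPM in Ash1l+/-, against 12.0, 5.30 and 12.5 CPM in WT, and has the lowest GC content of the members tested, at 36.6%. Its log2 fold change was 0.41 over the 5 libraries, 0.07 with the trends removed, where it did not pass, and 0.70 over all 6. DESeq2 did not call it over the 5 libraries (adjusted p = 0.0550). Kcnt1, its more abundant relative, was at 177, 172 and 164 CPM in Ash1l+/- and 188, 183 and 175 CPM in WT and did not pass. Kcnn1, a small-conductance calcium-activated channel, was at 46.6, 49.0 and 44.4 CPM in Ash1l+/-, against 61.9, 59.5 and 59.5 CPM in WT, with WT replicate 2 beside the other WT libraries. Its log2 fold change was -0.38 (SE 0.08, edgeR adjusted p = 0.00409) over the 5 libraries, -0.37 (unadjusted p = 0.0289) over all 6, and -0.14 with the trends removed.

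Of the 16 accessory genes 12 were tested in the 5 libraries; Kcnip2, Kcnip3, Kcnab2 and Kcnmb1 fell and no member rose. Kcnip2 was at 118, 115 and 113 CPM in Ash1l+/-, against 140, 151 and 147 CPM in WT, without overlap (log2 fold change -0.32, SE 0.07, edgeR adjusted p = 0.00534 over the 5 libraries, and -0.35 over all 6). Kcnip3 and Kcnab2 had -0.26 and -0.21 over the 5 libraries and -0.25 and -0.39 over all 6. None of these 3 passed with the trends removed, and Kcnab2 was then at 0.04. Kcnmb1, the smooth muscle beta subunit of BK channels (chromosome 11, 33963013 to 33973641, plus strand), behaved otherwise; it is singled out here after its values were seen. It was at 37.3, 30.9 and 36.0 CPM in Ash1l+/-, against 42.7, 35.6 and 41.9 CPM in WT, where WT replicate 2 falls among the Ash1l+/- values. Its log2 fold change was -0.28 (SE 0.10, edgeR adjusted p = 0.0489) over the 5 libraries, -0.36 (SE 0.09, adjusted p = 0.0205) with the trends removed, and -0.21 (SE 0.16, adjusted p = 0.469) over all 6. DESeq2 did not call it over the 5 libraries (adjusted p = 0.0713). When 1 of those 5 was left out, its log2 fold change ran from -0.34 to -0.20, and its call was lost in most of these fits. The spans of Kcnmb1 and Kcnip1 overlap, in libraries that do not mark strand. Whether their exons overlap was not tested. Of 7 markers of mural cells, the contractile cells of vessels, Rgs5 rose and none fell in the 5 libraries, with a sum of 278 to 330 CPM in Ash1l+/- and 131 to 282 CPM in WT and none at 0. Their part in the Kcnmb1 result was not tested. Kcnmb4, the neuronal BK beta subunit, was at 2.61, 2.95 and 3.01 CPM in Ash1l+/- and at 4.35, 10.98 and 3.16 CPM in WT, did not pass (log2 fold change -0.40 over the 5 libraries and -1.10 over all 6), and is overlapped by Kcnmb4os1 and Kcnmb4os2.

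**Figure D4:**
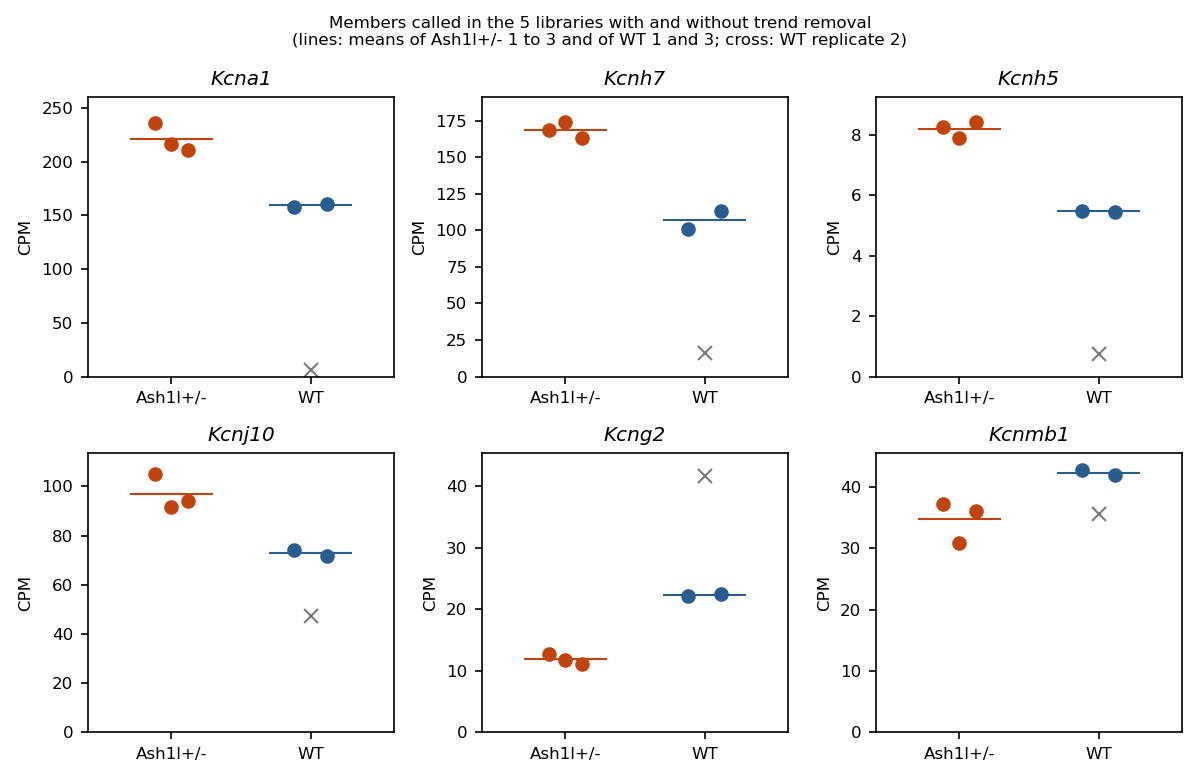
CPM per library of the 6 Kcn genes called over the 5 libraries both with and without removal of GC and length trends. The groups do not overlap for Kcna1, Kcnh7, Kcnh5, Kcnj10 and Kcng2 with all 6 libraries in view, and for Kcnmb1 WT replicate 2 (cross), at 35.6 CPM, lies among the Ash1l+/- values. Kcnh5 and Kcnmb1 did not pass in every fit that left out 1 of the 5 libraries.

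The 5-library calls leaned on WT replicate 1, which left 1 WT library when taken out. In that case 7 members passed (8.86% of those tested, against 4.67% of all genes), and these 7 passed in every one of the 5 leave-one-out fits: Kcna1, Kcnh7, Kcnj10, Kcng2, Kcns1, Kcnk12 and Kcnip2. Without Ash1l+/- replicate 2 there were 15 calls (19.5%, against 11.4% of all genes) and without Ash1l+/- replicate 3 there were 18 (23.1%, against 13% of all genes), so calls became fewer over the whole table too. Leaving out Ash1l+/- replicate 1 instead gave 35 (45.5%, against 26% of all genes), so calls then became more over the whole table. Leaving out WT replicate 3 also left 1 WT library, and fewer of the 5-library calls were lost than without WT replicate 1. In both of these fits the single remaining WT library was assumed to vary as the Ash1l+/- libraries do.

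Groups that do not overlap were counted over all 6 libraries as well. In Ash1l+/-, 16 of the 77 members tested were above every WT library and 21 below, against 19.3% and 19.2% of all genes tested. Over the 5 libraries these counts were 20 and 27 of 78, against 23.9% and 25.3%. Of the 31 members called in the 5 libraries, all 14 that rose and all 17 that fell had the groups apart there. When WT replicate 2 was put back, 13 of the 14 and 13 of the 17 kept them apart. The 31 were picked on 5 of these 6 libraries, so these counts are no independent test. The same share among all genes called in the 5 libraries was not computed. WT replicate 2 lay below all other 5 libraries in 11 of the 14 that rose and above them all in 9 of the 17 that fell, against 36 below and 23 above among all 78 members tested. The log2 fold change of Kcna2 and of Kcnh6 turned sign with it.

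WT replicate 2 had an expression pattern of its own across Kcn genes. Against the mean of WT replicates 1 and 3, 24 of the 76 members tested and detected in it differed by over 2-fold, 16 lower and 8 higher, a share of 31.6% against 40.3% of all genes. Between WT replicates 1 and 3 no member tested in the 5 libraries differed by over 2-fold. Kcna1 was furthest, with a log2 ratio of -4.76, followed by Kcnh5 at -2.87, Kcnh7 at -2.73 and Kcnj2 at -2.55. On the other side stood Kcnn4, a calcium-activated channel that passed in neither set, at 56.8 CPM against 19.0 and 16.0 CPM in WT replicates 1 and 3, and Kcnd1. The library also differed in cell type markers, with an erythrocyte list at 628 CPM against 78.5 and 101 CPM in WT replicates 1 and 3, and an endothelial list at 232 CPM against 92.3 and 76.1 CPM. Lists of the ganglion's own cells differed too. The sensory neuron list was at 23023 CPM against 10382 and 10460 CPM. The non-myelinating Schwann cell list was lower, at 836 CPM against 1936 and 1945 CPM. The part of these differences in the Kcn values was not tested.

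**Figure D5:**
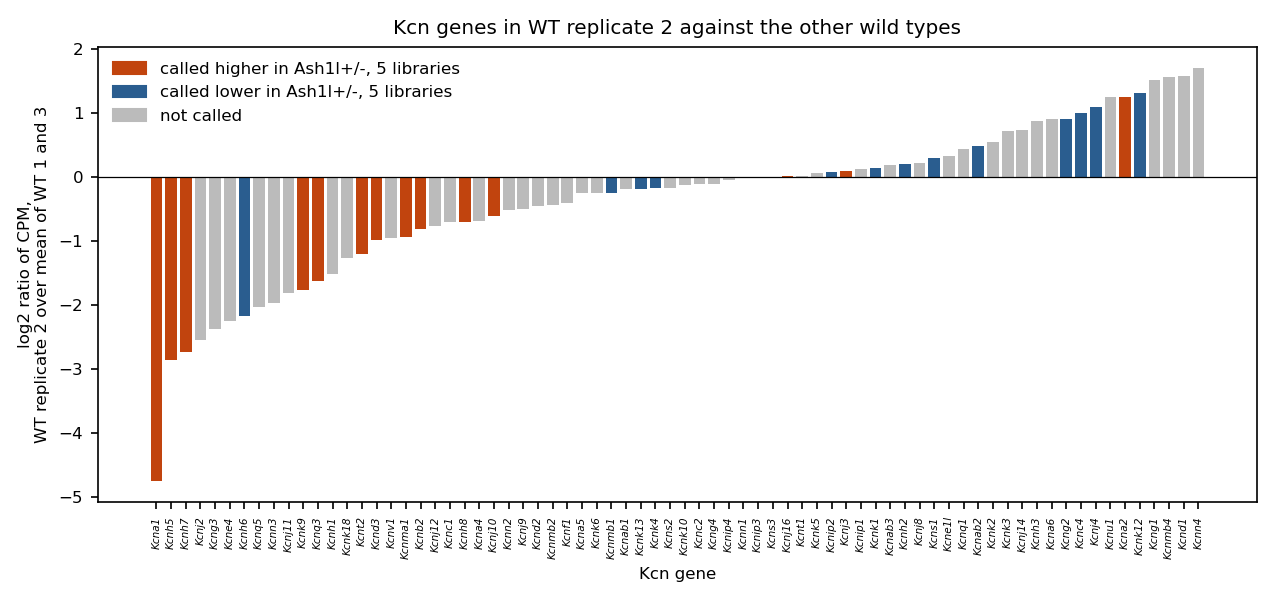
Log2 ratio of CPM in WT replicate 2 over the mean of WT replicates 1 and 3 for 72 Kcn genes tested and detected in it, in rank order, coloured by their call in the 5 libraries. Kcna1 is lowest at -4.76 and Kcnn4 highest at 1.70, and members called higher in Ash1l+/- gather on the low side.

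Other lists held genes that were called in the 5 libraries, where 9.39% of all genes rose and 10.4% fell, or 2.63% and 4.41% with the trends removed. Of 12 axon injury genes 8 rose and none fell, among them Atf3, Gal and Sox11, and 9 rose with the trends removed. Their summed level was 430 to 549 CPM in Ash1l+/- and 370 to 504 CPM in WT, with the top of the WT range in replicate 2; Sprr1a and Npy were at 0 in at least 1 library. Of 7 mechanoreceptor and proprioceptor markers 4 rose (Nefh, Ntrk3, Spp1 and Piezo2), with a sum of 4152 to 4515 CPM in Ash1l+/- and 3684 to 5403 CPM in WT, and 1 did with the trends removed. Of 7 myelinating Schwann cell markers 3 fell (Mbp, Egr2 and Mag), with a sum of 3891 to 4618 CPM in Ash1l+/- and 4711 to 5806 CPM in WT, and 2 did with the trends removed. Of 5 non-myelinating Schwann cell markers Scn7a, Cdh2 and Ednrb rose and Ngfr fell, with a sum of 1932 to 2050 CPM in Ash1l+/- and 836 to 1945 CPM in WT, and none passed with the trends removed. Of 5 fibroblast markers Col1a1 and Col1a2 fell, with a sum of 537 to 598 CPM in Ash1l+/- and 496 to 674 CPM in WT, and 2 did with the trends removed. The nociceptor list had 2 of 8 higher and 1 lower, the sensory neuron list 1 of 9 higher and 2 lower, and the erythrocyte list 2 of 5 lower, while no macrophage or endothelial marker passed. Of the markers of other tissue, 1 of 7 neutrophil and mast cell genes tested fell (S100a8), and of 4 central nervous system genes tested Aqp4 rose and Mobp and Slc17a7 fell. Mog, Olig2, Opalin and the mast cell gene Cma1 were at 0 in at least 1 library. Their part in the Kcn results was not tested.

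Genes whose products bind, anchor or modify these channels were followed beside them. Of the 29 listed 27 were tested in the 5 libraries, where 6 rose and 3 fell, against 9.39% and 10.4% of all genes, with a median log2 fold change of 0.09; over all 6 libraries edgeR called 0, with 1 at an unadjusted p under 0.05. The 6 that rose included Cntnap2, which holds Kv1 channels in place beside the node, and Dlg2, a scaffold protein found with them there. Adam22 and Adam23, receptors of Lgi proteins in the Kv1 complex, rose too. So did Ank3, the ankyrin that anchors KCNQ channels, and Dpp10, an auxiliary subunit of Kv4. Ank3 was at 430, 435 and 431 CPM in Ash1l+/-, against 323, 151 and 332 CPM in WT, with a log2 fold change of 0.40 (SE 0.07, edgeR adjusted p = 0.000841) over the 5 libraries and 0.17 (adjusted p = 0.0768) with the trends removed. Adam11, Abcc8, the sulfonylurea receptor, and Calm3, a calmodulin gene, fell. None of these 9 passed with the trends removed, where Dlg4 and Nedd4l alone did, both lower at log2 fold changes of -0.33 and -0.23. Of 8 chromatin regulators of neuronal channel genes, among them Rest, Ehmt2 and Dnmt3a, Hdac2 alone rose in the 5 libraries (log2 fold change 0.33, SE 0.08, edgeR adjusted p = 0.00915), and none passed with the trends removed.

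The promoters show whether the split in GC content of the transcripts was present at the gene starts too, so those of 4 members called with the trends removed and that of Kcns1, whose call ended, are printed. RefSeq on GRCm38.p6 gave the 250 bases before the start for 68 of the 92 members. Sequences run 5′ to 3′ on the strand of the gene, with CG dinucleotides in capitals. They lie at chr2:63184288-63184537 (minus strand, Kcnh7), chr1:172340960-172341209 (plus, Kcnj10), chr12:75177333-75177582 (minus, Kcnh5), chr11:33962763-33963012 (plus, Kcnmb1) and chr2:164171114-164171363 (minus, Kcns1), each just before the gene's first base in the count table.
Kcnh7: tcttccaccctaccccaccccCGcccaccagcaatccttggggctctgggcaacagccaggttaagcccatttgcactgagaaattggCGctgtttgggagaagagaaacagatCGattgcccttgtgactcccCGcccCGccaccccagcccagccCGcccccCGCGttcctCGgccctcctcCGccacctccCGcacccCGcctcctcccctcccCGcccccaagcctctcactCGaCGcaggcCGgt
Kcnj10: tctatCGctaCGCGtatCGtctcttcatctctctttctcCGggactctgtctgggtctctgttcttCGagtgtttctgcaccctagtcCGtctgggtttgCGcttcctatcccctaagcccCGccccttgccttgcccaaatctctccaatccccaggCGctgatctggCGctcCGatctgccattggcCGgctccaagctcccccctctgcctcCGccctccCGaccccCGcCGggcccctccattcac
Kcnh5: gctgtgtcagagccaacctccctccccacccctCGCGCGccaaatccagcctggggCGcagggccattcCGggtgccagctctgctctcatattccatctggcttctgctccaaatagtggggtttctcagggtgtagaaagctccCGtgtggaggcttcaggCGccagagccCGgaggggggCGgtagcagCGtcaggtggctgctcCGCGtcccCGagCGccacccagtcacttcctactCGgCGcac
Kcnmb1: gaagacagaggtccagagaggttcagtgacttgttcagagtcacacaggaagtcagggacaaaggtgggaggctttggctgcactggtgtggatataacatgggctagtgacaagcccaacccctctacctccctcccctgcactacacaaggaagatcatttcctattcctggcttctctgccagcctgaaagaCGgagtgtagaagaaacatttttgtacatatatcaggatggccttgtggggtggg
Kcns1: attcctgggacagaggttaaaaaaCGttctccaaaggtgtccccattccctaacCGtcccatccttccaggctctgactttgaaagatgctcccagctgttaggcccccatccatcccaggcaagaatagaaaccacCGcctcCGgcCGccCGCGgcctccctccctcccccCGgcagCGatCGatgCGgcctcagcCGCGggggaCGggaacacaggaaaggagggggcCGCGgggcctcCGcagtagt
The Kcnmb1 promoter holds 1 CG dinucleotide and has 50.8% GC. The other 4 hold 16 or 17 and have 62.0% to 67.6% GC. The letters GGGCGG, read on both strands, are in each of these 4 and not in that of Kcnmb1, while TATAAA and TGACGTCA are in none. Over the members that rose, 10 of 14 matched the table, with a median promoter GC of 62.6%. Of those that fell 14 of 17 matched, with 63.1%, and of those tested and not called 31 of 47 did, with 58.8%. Both changed groups thus had GC-rich promoters, above the median of 52.4% over all 27018 genes of the table, unlike their transcripts, whose medians lie on either side of that of all members tested. GGGCGG was in 60.0% of the matched promoters of members that rose and 78.6% of those that fell, against 58.1% of those tested and not called, 58.8% of all members matched and 35.4% of all genes. TATAAA was in 1 of the 10 and 0 of the 14. It was in 3.23% of those tested and not called, 4.41% of all members matched and 14.3% of all genes.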

How the data were processed

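The authors deposited raw read counts and FPKM values per gene for all 6 libraries. The build was GRCm38 and the tools HISAT2 2.0.5 and featureCounts 1.5.0-p3, according to the submitters' processing notes, which state no parameters. The deposited FPKM equal the counts divided by gene length and 1 effective library size within 1%, so they order genes and add no other measurement. Per the labels' protocols, ganglia were frozen, RNA was taken up in Trizol and a NEBNext Ultra kit made the libraries. Every 2 libraries differed by more than sampling noise (lowest chi-square per degree of freedom 3.71).

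Counts were fitted over the whole table in edgeR 4.0.16 (R 4.3.3) by its quasi-likelihood test, with filterByExpr, TMM factors and a single term for genotype, and p-values were adjusted by Benjamini-Hochberg over all genes tested (threshold 0.05). SE is the size of the log2 fold change over the root of its F statistic. The trend fit enters, per library, loess curves (span 0.3, clipped at the 1 and 99 percentiles) on the length of the gene and the GC content of its longest GENCODE M21 transcript, found for 99.9% of genes tested. Alternatives used limma 3.58.1 and DESeq2 1.42.0. Fits were tested on simulated counts in which all genes had the same spread and no library stood apart. That simulation therefore cannot say how the fits handle WT replicate 2. Whether replicate numbers pair the libraries could not be decided.

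Members, lists and the set of 5 libraries without WT replicate 2 were chosen with earlier results of these data known. Named were members called in the 5 libraries (the 15 of smallest p in each direction), the 6 of smallest unadjusted p in each direction with 6 libraries, the 10 highest by FPKM, the highest of each family, and a set known from sensory neurons. Kcnmb1 and members named for their difference in WT replicate 2 were added after their values were seen. Some genes that the rule or lists select are not reported here.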

Additional observations from a re-analysis of the deposited data

How the results depend on the processing

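With 6 libraries, edgeR calls of Kcn genes stayed at 0 under RLE, upper-quartile and library-total scaling, other count filters, DESeq2, limma-voom, limma on log2(FPKM + 1) and log2(FPKM + 0.1) and removal of GC and length trends; quality weights gave 36 (with 26.1% of all genes called), and leave-one-out fits gave 0 to 31, with the 31 found without WT replicate 2 (with 19.8% of all genes called). With 5 libraries, the 31 calls were 29 to 32 under other scalings (with 19.7% to 20.1% of all genes called). They were 31 without a count filter (11.9% of all genes), 32 with a CPM filter (22.5%) and 32 with limma-voom (19.5%). DESeq2 gave 25 (22.2%) and limma on log2(FPKM + 1) gave 11 (6.94%). On log2(FPKM + 0.1) there were 0 (0.0061%), and with the trends removed 6 (7.04%). Leave-one-out fits gave 7 to 35 (7 without WT replicate 1, 15 without Ash1l+/- replicate 2, 18 without Ash1l+/- replicate 3). With the trends removed, the log2 fold change turned for Kcnab2 (0.040), Kcnc4 (0.030) and Kcnh2 (0.035), among others, in 5 libraries and for Kcnb2 (-0.11) in 6. Leave-one-out fits also hold fewer samples, and the causes of these differences were not tested. The correlation of deviations of same-numbered libraries was 0.00, -0.03 and 0.04. These deviations were taken from group means that include WT replicate 2, so they cannot decide whether the numbers pair the libraries. The replicate block gave 0 calls with 6 libraries and 30 with 5 (with 24.3% of all genes called). Depth limits the 14 members too low to test in 5 libraries.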
